A study of Homo sapiens with 18 samples.

Results

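The genes examined here are 8 markers of the stem-like state of tumour cells: ALDH1A1, ALDH1A2, ALDH1A3, CD44, PROM1, KLF4, BMI1 and ITGA6. Chromatin accessibility around them was measured by ATAC-seq, in which the Tn5 transposase inserts sequencing adapters into open DNA, so that more reads over a stretch mean that it is more accessible. All windows of 1 kb in the deposited table that overlap the annotated span of each gene extended by 10 kb on either side were taken, which gave 59 of 89428 windows. Of these, 13 are promoter windows (overlapping from 1 kb upstream to 100 bp downstream of a protein-coding start of the gene), 41 are distal, and 5 lie at the start of another gene (COMMD3 near BMI1, LRRK1 near ALDH1A3 and AQP9 within ALDH1A2). ALDH1A2 contributed 19 windows, ALDH1A3 10, CD44 8, BMI1 8, ITGA6 5, PROM1 4, KLF4 4 and ALDH1A1 1. The table lists 89428 of the 3439652 windows of the tiling grid, and a stretch that it does not list, such as the start of ALDH1A1, is not analysed here.

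The libraries came from 6 lines of ovarian cancer cells, with 3 replicates of each. A2780 is a cisplatin-sensitive line and CP70 (A2780cp70) is its derivative selected for resistance in culture. The PEA lines are from ascitic fluid in high-grade serous ovarian cancer and share a donor, who had not yet received platinum when PEA1 was taken and had relapsed with resistance by the time of PEA2. PEO1 and PEO4 came from another patient with this cancer after platinum therapy, PEO1 while the disease was still sensitive and PEO4 once it was resistant. All cells were grown untreated in RPMI medium with serum, and each condition is a single line, so a difference between paired lines cannot be told apart from any other difference between those lines. Nothing states that replicates were separate cultures, so the p-values measure only the spread between these libraries, which may be technical.

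Aldehyde dehydrogenases of the ALDH1A family oxidise retinal to retinoic acid, and high activity of these enzymes is the readout of the assay by which stem-like tumour cells are often sorted. CD44, the hyaluronan receptor, PROM1, which encodes the surface glycoprotein CD133, and ITGA6, an integrin subunit that binds laminin, are surface antigens used for the same purpose, while KLF4 is a pluripotency transcription factor and BMI1 a subunit of a Polycomb repressor complex. In ovarian cancer these markers are studied for their link with relapse after chemotherapy. An open promoter is not a measure of expression.

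Levels are given in FPKM, the reads of a 1 kb window per 1000000 reads of the library. Library totals ran from 8972042 to 60495462 reads, and the share of a library that fell into the listed windows ran from 8.37% in an A2780 library to 40.8% in a PEO1 library. By line that share averaged 9.25% (A2780), 13.1% (CP70), 15.2% (PEA1), 18.9% (PEA2), 39.9% (PEO1) and 34.4% (PEO4). FPKM values of PEO1 and PEO4 were thus often higher than those of A2780, which was the lowest line at 39.5% of all windows against 7.30% for PEO1 and 5.80% for PEO4. The relative level, the FPKM divided by the mean FPKM of all listed windows in the same library (1 is an average window), is therefore given beside FPKM. Of the label checks, the summed FPKM at the start windows of 5 epithelial markers ran from 3.99 in A2780 to 43.1 in PEO4. Start windows of 3 of 4 Müllerian markers were in the table, with a sum of 2.58 in A2780 and 41.6 in PEO4. Those of 3 mesenchymal markers ran from 5.89 in A2780 to 21.3 in PEA1. Of the leukocyte markers only CD14 had a start window in the table, with 0.590 FPKM in A2780 and 5.67 in PEO1, and none of the 3 endothelial and 3 fibroblast markers had one. The part of these differences in the results was not tested.

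The start windows of these genes were rich in CpG, and the distal windows whose accessibility differed most between paired lines were not. By a GC content above 50% and an observed to expected CpG ratio above 0.6, 10 of the 13 promoter windows, 7 of the 41 distal windows and 23.3% of all windows in the table were CpG-rich. From the reference genome GRCh37, 200 bases are printed for 3 promoters, at the nearest exon-free stretch upstream of the canonical start (5′ to 3′ along the gene). The same length is printed for the centres of 4 distal windows (plus strand), with each CpG in capitals.
ALDH1A3 promoter, chr15:101419818-101420017, plus strand: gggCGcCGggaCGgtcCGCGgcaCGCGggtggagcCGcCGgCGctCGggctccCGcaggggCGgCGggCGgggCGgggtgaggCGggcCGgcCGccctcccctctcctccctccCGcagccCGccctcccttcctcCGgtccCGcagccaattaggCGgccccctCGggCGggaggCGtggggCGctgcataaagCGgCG
BMI1 promoter, chr10:22609828-22610027, plus strand: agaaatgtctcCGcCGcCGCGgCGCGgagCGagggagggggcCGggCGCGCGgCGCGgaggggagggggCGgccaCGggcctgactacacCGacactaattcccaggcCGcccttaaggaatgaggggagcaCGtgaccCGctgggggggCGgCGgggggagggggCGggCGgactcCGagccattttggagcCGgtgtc
PROM1 promoter, chr4:16086002-16086201, minus strand: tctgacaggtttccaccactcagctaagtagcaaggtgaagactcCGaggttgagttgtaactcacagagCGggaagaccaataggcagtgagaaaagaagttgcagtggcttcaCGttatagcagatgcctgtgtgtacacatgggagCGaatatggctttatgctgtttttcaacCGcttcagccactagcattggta
ALDH1A1 intron, chr9:75593201-75593400: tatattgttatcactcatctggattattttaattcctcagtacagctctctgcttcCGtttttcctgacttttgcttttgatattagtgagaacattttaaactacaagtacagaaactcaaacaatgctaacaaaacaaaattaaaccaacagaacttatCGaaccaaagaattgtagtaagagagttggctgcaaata
ALDH1A2 intron, chr15:58661501-58661700: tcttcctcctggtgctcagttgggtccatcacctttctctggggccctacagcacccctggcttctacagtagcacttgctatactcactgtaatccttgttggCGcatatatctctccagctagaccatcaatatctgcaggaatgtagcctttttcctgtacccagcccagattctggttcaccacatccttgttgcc
ALDH1A2 intron, chr15:58786601-58786800: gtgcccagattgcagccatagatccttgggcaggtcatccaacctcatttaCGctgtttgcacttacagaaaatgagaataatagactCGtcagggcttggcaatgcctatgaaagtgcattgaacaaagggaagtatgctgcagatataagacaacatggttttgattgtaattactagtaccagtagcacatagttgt
ALDH1A3 downstream, chr15:101457401-101457600: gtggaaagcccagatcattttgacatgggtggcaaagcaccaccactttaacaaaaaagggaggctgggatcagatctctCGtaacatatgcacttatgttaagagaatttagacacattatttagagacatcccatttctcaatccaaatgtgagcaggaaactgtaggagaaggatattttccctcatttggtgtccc
The stretches of ALDH1A3 and BMI1 hold 30 and 25 CpG, and the distal centres hold 1 or 2. That of PROM1, which starts 356 bases upstream of the canonical start, holds 5. It lies in the PROM1 window at -0.6 kb (43.6% GC), which is not CpG-rich. The PROM1 start window itself is CpG-rich (67% GC, 84 CpG) and is not shown.

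Of 5 motifs searched on both strands (AP-1, TEAD, GC box, TATA and E-box), AP-1 at CD44 is shown, a choice made after the counts for all 8 genes were seen. The pattern searched for AP-1, TGANTCA, occurred in 5 of the 6 distal windows of CD44, all in introns. It also occurred in 15 of the 41 distal windows of the 8 genes together, 1 of the 13 promoter windows and 38.3% of all windows. The pattern allows any middle base and is looser than the AP-1 consensus, which has C or G there. At CD44 only the first match at +5.5 kb and that at +28.0 kb have C or G there. Windows with C or G there were not counted apart. A match is a description of the letters and not of binding. The 6 matches are printed with 15 bases on either side (plus strand, match in capitals), named by the distance of their window's centre from the canonical start of CD44.
CD44 +5.5 kb, first match, chr11:35165953-35165989: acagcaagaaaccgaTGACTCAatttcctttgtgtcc
CD44 +5.5 kb, other match, chr11:35166435-35166471: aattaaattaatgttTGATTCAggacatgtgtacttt
CD44 +24.4 kb, chr11:35184949-35184985: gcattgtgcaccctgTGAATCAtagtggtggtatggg
CD44 +27.1 kb, chr11:35187391-35187427: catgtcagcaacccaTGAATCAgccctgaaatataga
CD44 +28.0 kb, chr11:35188380-35188416: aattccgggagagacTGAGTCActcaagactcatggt
CD44 +39.7 kb, chr11:35200431-35200467: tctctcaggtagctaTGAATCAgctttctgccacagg

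The 3 pairs did not share a direction of change at these genes. A window was tested in a pair if its mean over the 6 libraries was above 1 FPKM, using limma on log2(FPKM + 0.1), with Benjamini-Hochberg adjustment over all tested windows. It was called at a log2 fold change beyond 2 in size and an adjusted p below 0.001, and a window is said to have risen or fallen at an adjusted p below 0.05. In CP70, 15 of 22 tested windows rose and 0 fell, against 47.5% and 2.29% of all tested windows. In PEA2, 11 of 47 rose and 15 fell, against 43% and 21.4%. In PEO4, 6 of 52 rose and 31 fell, against 21.9% and 45.8%. The median log2 fold change of all tested windows was 0.59 in CP70, 0.31 in PEA2 and -0.30 in PEO4, beside 0.76, -0.13 and -0.72 at these genes, so that in PEA2 the windows of these genes and all windows had medians of opposite sign. Of the 15 windows that fell in PEA2, 11 were of ALDH1A2 and 4 of KLF4. ALDH1A2 alone gave 13 of the 47 windows tested there, with a median of -0.80. Without A2780 replicate 3, 6 windows rose in CP70. With each library centred on its median, 5 windows rose and 0 fell in CP70, 8 rose and 28 fell in PEA2, and 11 rose and 23 fell in PEO4.

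Calls by the stricter rule fell on few windows. In CP70 1 window was called higher and 0 lower, against 0.428% and 0.369% of all tested windows. In PEA2 2 were called higher and 1 lower, against 11.2% and 1.42%. In PEO4 1 was called higher and 4 lower, against 2.72% and 5.78%. These 9 calls lie at 8 windows of ALDH1A1, ALDH1A2, ALDH1A3 and PROM1, and none at CD44, KLF4, BMI1 or ITGA6.

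**Figure D1:**
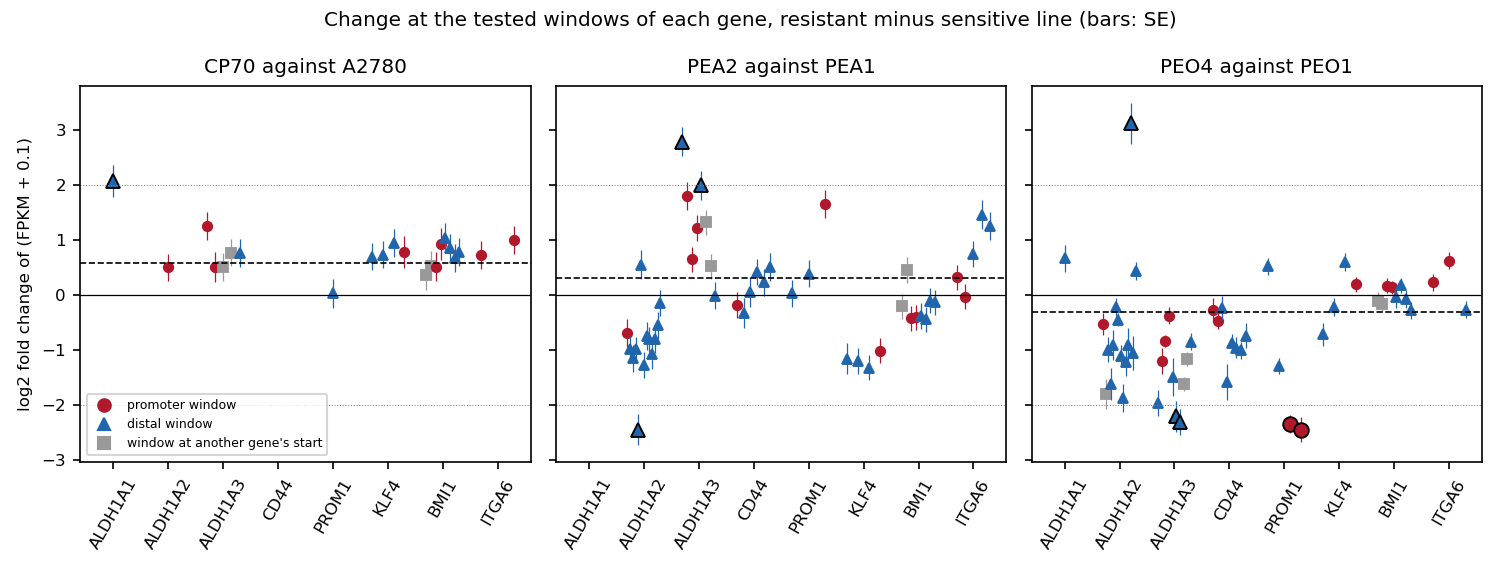
Log2 fold change of log2(FPKM + 0.1), resistant minus sensitive line, with its SE at each tested window, by gene and pair; circles are promoter windows, triangles distal windows and squares windows at another gene's start, and large black-edged symbols are called. The dashed line is the median of all tested windows of the pair (0.59, 0.31 and -0.30) and the dotted lines mark a log2 fold change of 2 in size. ALDH1A3 and PROM1 lie above 0 in PEA2, apart from 1 ALDH1A3 window at -0.0072, and mostly below it in PEO4, and the BMI1 windows lie near 0 in PEO4.

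ALDH1A1 encodes the retinal dehydrogenase most often used as a stem-cell marker. Its only listed window, chr9:75592801-75593800, lies in an intron of the annotated span, centred at -25.3 kb from the canonical start (negative distances are upstream). This window read 0.418, 0.451 and 0.397 FPKM in the A2780 libraries and 2.95, 2.39 and 1.30 in those of CP70. It read 1.01, 1.31 and 1.56 in PEO1 and 1.86, 2.06 and 2.39 in PEO4. Every CP70 library was above every A2780 library, and every PEO4 library above every PEO1 library. PEA1 and PEA2 were low, with 0.379 ± 0.172 and 0.572 ± 0.0365 FPKM (SD, n = 3), and the window was not tested in that pair. Accessibility was called higher in CP70, with a log2 fold change and SE of 2.08 ± 0.29 (limma adjusted p = 1.14e-10). In PEO4 it rose by 0.67 ± 0.24 (limma adjusted p = 0.0138). On the relative scale the level went from 0.409 ± 0.0131 in A2780 to 1.50 ± 0.450 in CP70, where it was above an average window, and from 0.291 ± 0.0660 in PEO1 to 0.549 ± 0.0896 in PEO4. The CP70 libraries are spread, and the call is lost without CP70 replicate 1, when the window falls under the 1 FPKM minimum, or without CP70 replicate 2 (1.99). The change also stays under 2 with median centring (1.82), quantile normalization (1.78) or with the median change of all tested windows in the same 5 Mb stretch (the 5 Mb median) removed (1.54). Across the lines CP70 and PEO4 did not differ beyond their spread (adjusted p = 0.991 in the fit over 18 libraries), nor did PEA2, A2780 and PEA1 as neighbours in the order (adjusted p = 0.273 and 0.606).

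ALDH1A2, the retinal dehydrogenase of the embryonic mesoderm, has an annotated span of 544 kb that also covers AQP9 and part of LIPC, so that 18 of its 19 windows lie from -71.5 to -440.5 kb. Its start window, chr15:58357801-58358800, was weakly open everywhere, between 1.02 ± 0.0849 FPKM in PEA2 and 2.79 ± 0.205 in PEO1. No neighbours in the order of the 6 lines differed at this window at an adjusted p below 0.05. The most open of its windows was an intronic one at -266.8 kb, chr15:58624201-58625200. It read 11.9, 13.1 and 11.9 FPKM in PEO1, 10.7, 8.97 and 7.72 in PEO4 and 5.06, 5.08 and 3.45 in PEA1. The level was 0.450 ± 0.0611 in A2780 and 0.430 ± 0.119 in CP70. PEO1 was 28.6-fold above CP70 in FPKM and 9.42-fold on the relative scale.

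Most tested windows over the annotated span of ALDH1A2 were lower in the resistant line of the PEA and PEO pairs. Those from -397.3 to -440.5 kb lie in introns of LIPC. Distances are from the canonical start, and another protein-coding start of ALDH1A2 lies upstream of it. In PEA2, 11 of 13 tested windows fell and 0 rose (median log2 fold change -0.80), against 21.4% and 43% of all tested windows. In PEO4, 11 of 14 fell and 2 rose (median -0.94), against 45.8% and 21.9%. The surroundings moved with them, as the median over all tested windows of the same 5 Mb stretch was -0.80 in PEA2 (111 windows) and -1.22 in PEO4 (152 windows). With that median removed, the -266.8 kb window changed from -0.44 to 0.78 in PEO4. Only 1 of the 19 windows was tested in CP70, the start window, at 0.51 ± 0.25 (adjusted p = 0.0761).

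Called changes were found at a pair of ALDH1A2 windows. The window at -303.7 kb, chr15:58661101-58662100, read 2.85, 3.08 and 2.06 FPKM in PEA1 and 0.385, 0.347 and 0.488 in PEA2. All other lines were at or below 0.598 ± 0.305 FPKM, and PEA1 was the single line with a mean above 1 FPKM. It was called lower in PEA2 (-2.44 ± 0.27, limma adjusted p = 9.76e-18), and -1.64 remained with the 5 Mb median removed. The window at -428.8 kb, chr15:58786201-58787200, lies in an intron of LIPC, the hepatic lipase gene, and rose in PEO4. It read 0.304, 0.174 and 0.111 FPKM in PEO1, which is 1 to 3 reads in each library, and 2.21, 2.98 and 2.09 in PEO4, which is 38 to 62 reads. With 6 reads in PEO1 and 142 in PEO4 the ratio of the rates was 12.3, with a 95% exact interval of 5.53 to 34.2 that covers counting error only. The fitted log2 fold change was 3.13 ± 0.37 (limma adjusted p = 2.73e-09), against a 5 Mb median of -1.22. The other window that rose in PEO4, at -440.5 kb, went from 3.88 ± 0.791 to 5.22 ± 0.173 FPKM (0.44 ± 0.16, limma adjusted p = 0.0151).

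ALDH1A3, the family member that accounts for aldehyde dehydrogenase activity in several solid tumours, showed opposite changes in the PEA and PEO pairs. In PEA2, 7 of 8 tested windows rose and 0 fell (median log2 fold change 1.28), against 43% and 21.4% of all tested windows. In PEO4, 10 of 10 fell (median -1.34), against 45.8%. In CP70, 3 of 5 rose, against 47.5%, with a median of 0.77 beside the 0.59 of all windows. In each pair the tested windows include the 2 at the start of LRRK1. The start window, chr15:101419201-101420200, was the most open of the start windows in PEO1. It read 1.10, 1.22 and 1.27 FPKM in A2780 and 3.48, 2.33 and 3.27 in CP70. The PEA1 libraries read 3.62, 3.58 and 2.16 and the PEA2 libraries 4.40, 4.74 and 5.46. PEO1 read 14.2, 17.4 and 14.9 and PEO4 8.37, 8.93 and 8.57. The libraries of paired lines did not overlap in any pair. The log2 fold changes were 1.25 ± 0.26 in CP70, 0.66 ± 0.23 in PEA2 and -0.83 ± 0.11 in PEO4 (limma adjusted p = 2.10e-05, 0.00728 and 5.46e-08). The 5 Mb medians there were 0.42, 0.81 and -0.83, so the start window moved with its surroundings in PEA2 and PEO4, and the rise in PEA2 was 0.15 and no longer passed the test with median centring.

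Windows beside the ALDH1A3 start and downstream of the gene moved further than the start itself. At -2.1 kb, chr15:101417401-101418400, the PEA1 libraries read 0.577, 0.343 and 0.384 FPKM and the PEA2 libraries 4.12, 3.12 and 3.46. The same window read 3.74, 2.88 and 4.12 in PEO1 and 0.756, 0.912 and 0.847 in PEO4. It was thus high in PEA2 and PEO1 and low in their partners, with A2780 at 0.731 ± 0.130 and CP70 at 0.993 ± 0.218. The change was 2.80 ± 0.26 in PEA2, a call, and -1.96 ± 0.23 in PEO4 (limma adjusted p = 1.10e-25 and 2.72e-09). With the 5 Mb medians removed, 1.98 and -1.13 remained.

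At +37.5 kb, chr15:101457001-101458000, in an intron of the antisense gene ALDH1A3-AS1, the window was called in both pairs and in opposite directions. It read 0.481, 0.498 and 0.671 FPKM in PEA1 and 3.24, 1.97 and 2.40 in PEA2. PEO1 read 7.18, 8.55 and 5.68 and PEO4 1.98, 1.73 and 0.697. A2780 and CP70 did not exceed 0.682 FPKM in any library. The log2 fold change was 2.00 ± 0.26 in PEA2 and -2.30 ± 0.23 in PEO4 (limma adjusted p = 3.13e-13 and 4.65e-11). The call in PEA2 is close to the threshold of 2, since without PEA2 replicate 1, PEA1 replicate 1 or PEA1 replicate 2 the change is 1.82, 1.93 or 1.95. That in PEO4 is lost without PEO4 replicate 3 (-1.87). Both calls also depend on the scaling, with changes of 1.49 in PEA2 and -1.97 in PEO4 with median centring, 1.51 and -2.03 with quantile normalization, and 1.19 and -1.47 with the 5 Mb median removed. The window at +34.8 kb was called lower in PEO4 (-2.20 ± 0.28, limma adjusted p = 1.71e-08), from 2.81 ± 0.116 to 0.558 ± 0.226 FPKM, and this call is lost without PEO4 replicate 1 (-1.95), with median centring (-1.87), with quantile normalization (-1.97) or with the 5 Mb median removed (-1.37). It overlaps an exon of ALDH1A3-AS1. The window at +38.4 kb lies at the start of LRRK1, which encodes a protein kinase, and went from 16.4 ± 3.25 FPKM in PEO1 to 5.23 ± 0.371 in PEO4.

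The opposite directions were tested as differences between the changes of the pairs. At +37.5 kb the PEO4 change minus the PEA2 change was -4.31 ± 0.37 on the log2 scale (limma over 12 libraries, adjusted p = 5.43e-14), and at -2.1 kb it was -4.76 ± 0.34 (adjusted p = 2.73e-16). Over all 8 genes, such a difference above 2 in size at an adjusted p below 0.001 was found at 7 of 51 windows, against 26.6% of all windows. Of the 7, 2 were at PROM1 and 5 at ALDH1A3, among them that at +38.4 kb, at the start of LRRK1. Windows entered by a mean above 1 FPKM over the 12 libraries, so some were under that minimum in a single pair. In the PEA pair these were ALDH1A3 at +34.8 kb and PROM1 at -0.6 kb, which were not tested there. Between PEO4 and CP70 such a difference was found at 8 of 45, against 8.12%, and between PEA2 and CP70 at 4 of 38, against 12.8%. With median centring the last 2 counts became 0 and 7.

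**Figure D2:**
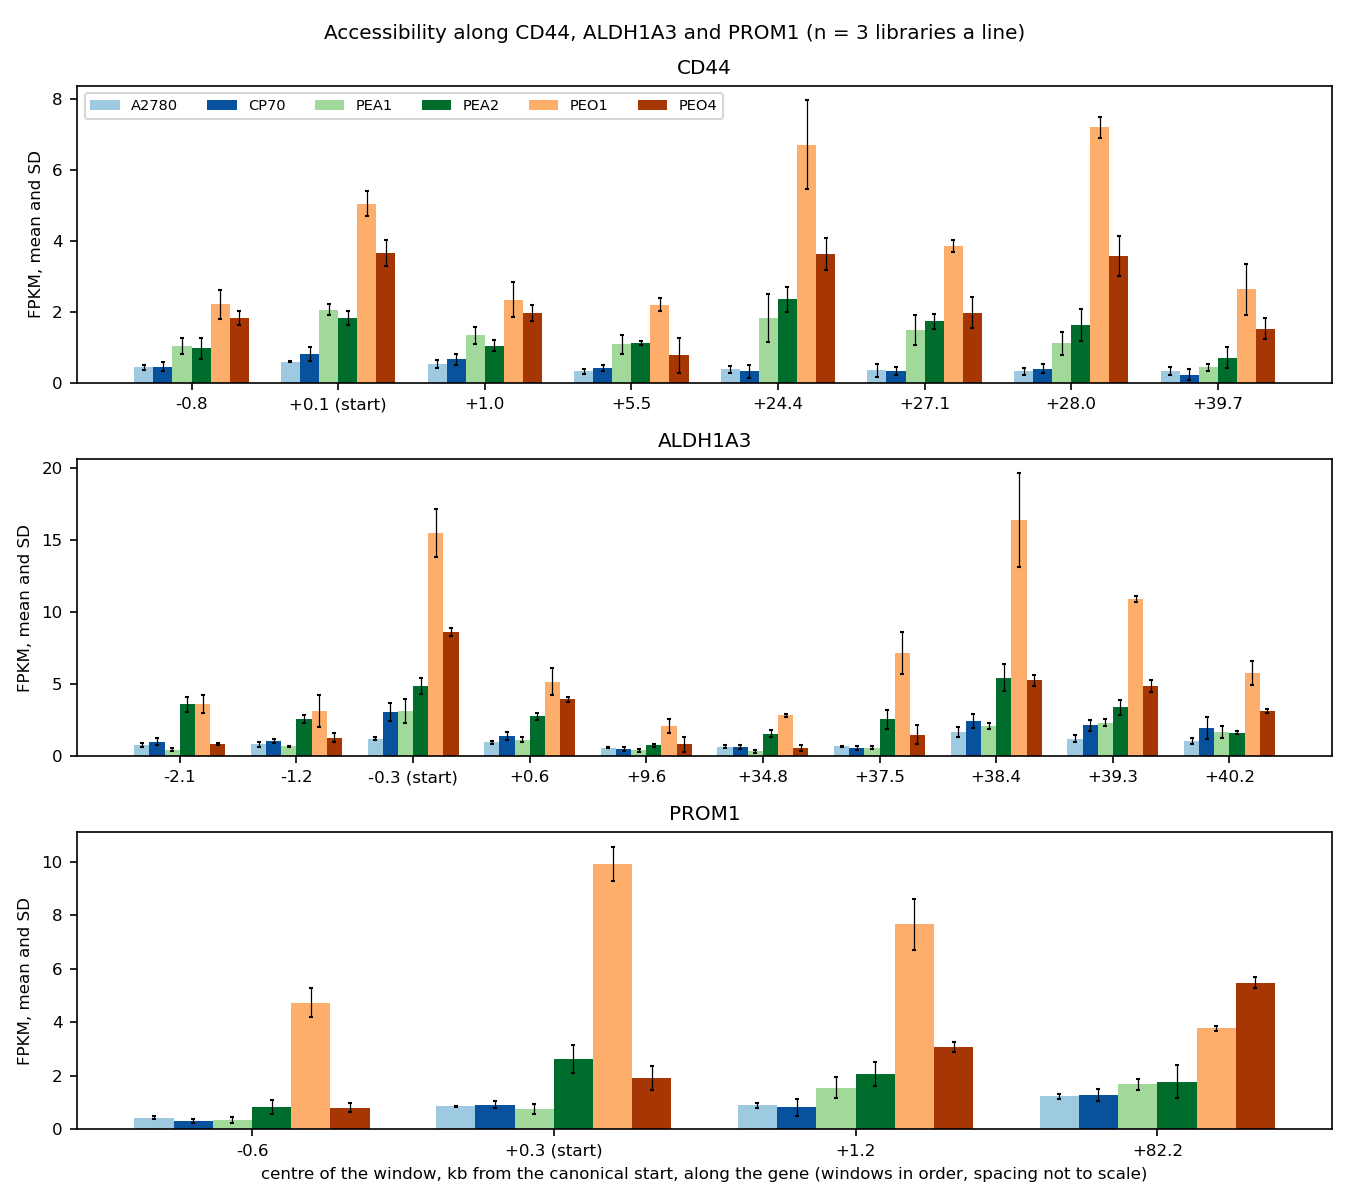
FPKM (mean with SD, n = 3 libraries) in the 6 lines at each listed window of CD44, ALDH1A3 and PROM1, ordered by the distance of the window's centre from the canonical start in kb, with the start window marked. CD44 is low in A2780 and CP70 at all 8 windows, ALDH1A3 is higher in PEA2 than in PEA1 and lower in PEO4 than in PEO1 at -2.1 and +37.5 kb, and PROM1 is highest in PEO1 at the 3 windows around its start.

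In PEO4, PROM1 had the largest tested promoter changes among the 7 genes with a listed promoter window, which leaves out ALDH1A1. In PEA2 the largest promoter change was 1.81, at the ALDH1A3 window at -1.2 kb. The start window, chr4:16084801-16085800, read 10.5, 10.0 and 9.25 FPKM in PEO1 and 1.80, 2.40 and 1.54 in PEO4. It read 0.545, 0.872 and 0.863 in PEA1 and 3.13, 2.08 and 2.62 in PEA2. A2780 stood at 0.851 ± 0.0287 and CP70 at 0.916 ± 0.140, near the level of PEA1. In FPKM the promoter was thus open in PEO1, weakly open in PEA2 and PEO4, and at 0.916 or below on average in the other lines. On the relative scale the order was similar at the top, with 2.23 ± 0.119 in PEO1 and 1.23 ± 0.131 in PEA2. PEO4 (0.495 ± 0.0922) came down to the level of PEA1 (0.456 ± 0.149), and its mean was below those of A2780 (0.828 ± 0.0942) and CP70 (0.643 ± 0.168). Accessibility was called lower in PEO4, at -2.34 ± 0.16 (limma adjusted p = 5.30e-15), and rose in PEA2 by 1.66 ± 0.25 (limma adjusted p = 2.34e-10). In CP70 the start window was under the 1 FPKM minimum and was not tested.

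The next PROM1 window upstream, at -0.6 kb (chr4:16085701-16086700), behaved likewise in the PEO pair. It read 5.06, 4.10 and 5.02 FPKM in PEO1 and 0.930, 0.864 and 0.598 in PEO4, and was called lower (-2.44 ± 0.22, limma adjusted p = 5.82e-12). The 5 Mb median at PROM1 was -0.22 in PEO4, and -2.11 and -2.22 remained at these windows with it removed. The intronic window at +1.2 kb fell by less (-1.29 ± 0.15). An intronic window at +82.2 kb rose in the same comparison, from 3.77 ± 0.0922 to 5.48 ± 0.217 FPKM (0.53 ± 0.15, limma adjusted p = 0.00216). The PEO4 change minus the PEA2 change was -4.00 ± 0.30 at the start window and -3.52 ± 0.40 at -0.6 kb (limma adjusted p = 1.72e-15 and 2.00e-10). The window at -0.6 kb was low in the PEA pair (0.339 ± 0.122 FPKM in PEA1 and 0.824 ± 0.247 in PEA2). It was under the 1 FPKM minimum there, so a change in PEA2 was not tested by itself.

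**Figure D3:**
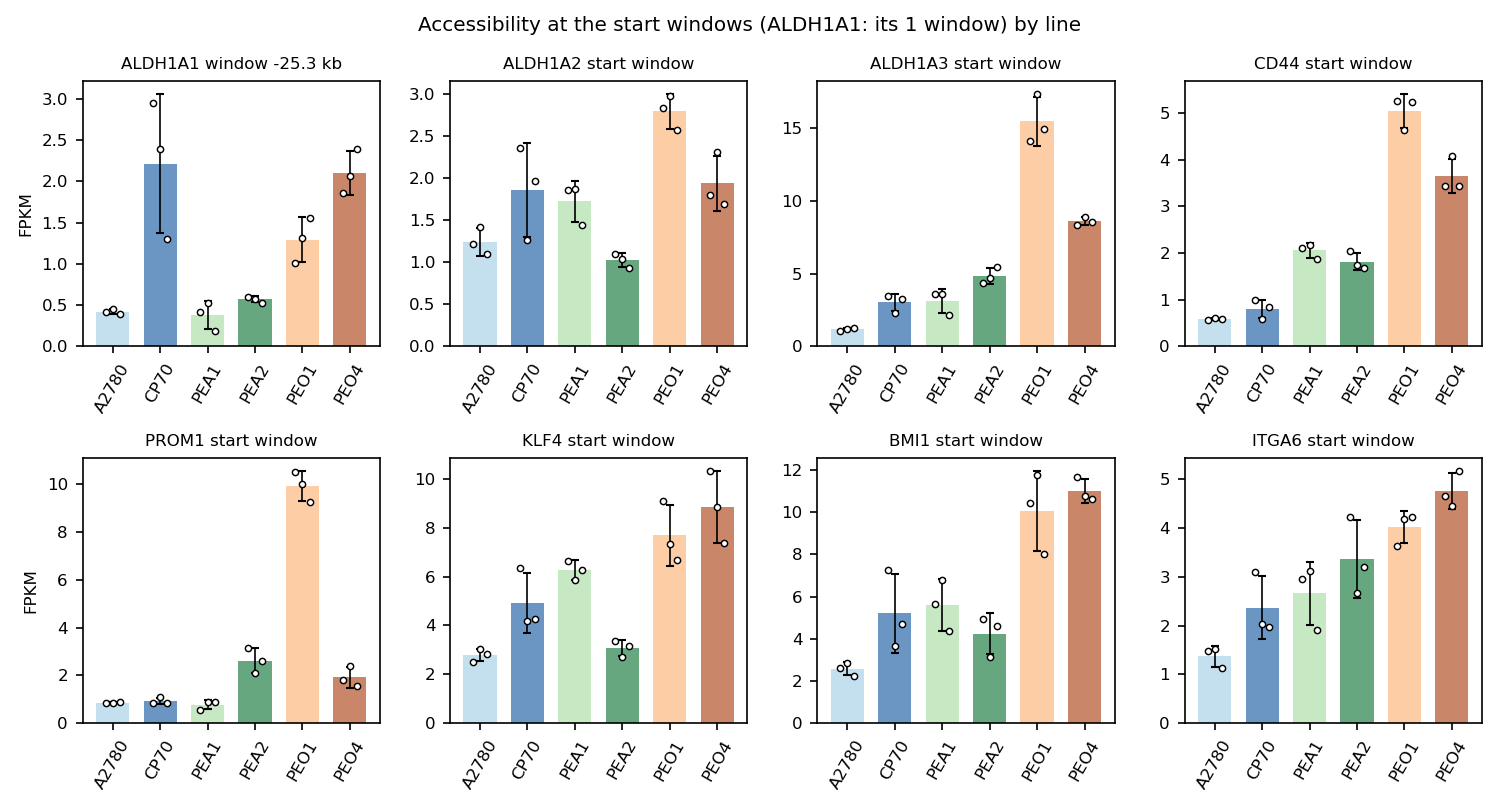
FPKM at the start window of each gene, and at the only listed window of ALDH1A1, in the 6 lines; bars are means, error bars the SD and circles the 3 libraries of a line. The PROM1 start is high in PEO1 alone (9.25 to 10.5 FPKM), the CD44 start is below 1 FPKM in A2780 and CP70, and the BMI1 start is open in all lines.

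In FPKM the means of all 8 CD44 windows were lower in A2780 and CP70 than in the other 4 lines, and none reached the 1 FPKM minimum in that pair, so none was tested there. The start window, chr11:35160301-35161300, read 0.575, 0.608 and 0.579 FPKM in A2780 and 0.985, 0.599 and 0.838 in CP70. PEA1 read 2.11, 2.18 and 1.87 and PEA2 2.03, 1.73 and 1.69. PEO1 read 5.26, 4.62 and 5.24 and PEO4 3.43, 4.08 and 3.44. No library of A2780 or CP70 overlapped the PEA or PEO libraries. In the order of the lines, PEA2 exceeded CP70 (limma adjusted p = 1.39e-05) and PEO4 exceeded PEA1 (adjusted p = 0.000961), while PEO1 and PEO4 (adjusted p = 0.0707), PEA1 and PEA2 (0.520) and CP70 and A2780 (0.188) did not pass the test in that fit over 18 libraries. PEO1 and PEO4 did pass in the fit of their pair, whose SE was smaller (0.16 against 0.22), and their libraries did not overlap. On the relative scale A2780 and CP70 stood at 0.570 ± 0.0415 and 0.551 ± 0.0910, PEA1 and PEA2 at 1.21 ± 0.0779 and 0.862 ± 0.0581, and PEO1 and PEO4 at 1.13 ± 0.104 and 0.948 ± 0.0648, so that PEO1 no longer stood above PEA1. A2780 and CP70 stayed the lowest at the start, and their neighbour in the order, PEA2, still exceeded A2780 (adjusted p = 0.0103). At 3 of the 8 windows the relative means no longer divided the lines in this way, at +1.0 kb (0.502 in A2780 and 0.493 in PEA2), at +5.5 kb (0.313 in A2780 and 0.202 in PEO4) and at +39.7 kb (0.326 in A2780 and 0.260 in PEA1).

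Of the 5 intronic windows of CD44 with the TGANTCA matches printed above, 1 had a smaller ratio of highest to lowest line than the start. It was that at +5.5 kb (6.84 against 8.58 in FPKM), and the others had larger ratios. At +28.0 kb, chr11:35188201-35189200, PEO1 read 7.49, 7.15 and 6.91 FPKM and PEO4 3.66, 2.98 and 4.08. PEA1 read 1.41, 1.15 and 0.767 and PEA2 2.14, 1.33 and 1.38. The level was 0.324 ± 0.0973 in A2780 and 0.385 ± 0.126 in CP70. PEO1 lay 22.2-fold above A2780 in FPKM at this window. In PEO4, 6 of the 8 CD44 windows fell and 0 rose, against 45.8% and 21.9% of all tested windows. Among those that fell were the window at the start (-0.46 ± 0.16, limma adjusted p = 0.00971) and that at +28.0 kb (it fell by 1.00 ± 0.15, limma adjusted p = 3.39e-07). The 5 Mb median at CD44 was -0.89 in PEO4, and with it removed the start window stood at 0.43 and the +28.0 kb window at -0.11. None of the 6 CD44 windows tested in PEA2 passed the test (log2 fold changes from -0.32 to 0.51, beside the median of 0.31 of all windows), and with median centring the start window fell in PEA2 (-0.68).

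Some ITGA6 windows rose in each of the 3 pairs, where 47.5% (CP70), 43% (PEA2) and 21.9% (PEO4) of all tested windows rose. Both tested windows, at the start and at +0.5 kb, rose in CP70 (0.73 ± 0.25 and 1.00 ± 0.26, limma adjusted p = 0.0134 and 0.000936). The start change is near the median of all windows in CP70, and with median centring it was 0.47 and did not pass the test. The start window, chr2:173291401-173292400, read 1.48, 1.51 and 1.12 FPKM in A2780 and 3.11, 2.04 and 1.97 in CP70. Next to that of BMI1 it was the start window that varied least between lines on the relative scale, with line means from 0.903 in PEO1 to 1.60 in CP70. In PEA2 3 of 5 tested windows rose, all intronic, and the promoter windows did not pass the test. The largest rise there was at +28.4 kb, where the level went from 0.750 ± 0.154 FPKM in PEA1 to 2.23 ± 0.302 in PEA2 (1.47 ± 0.26, limma adjusted p = 5.18e-08), and it was 0.234 ± 0.0652 in PEO1 and 0.591 ± 0.0927 in PEO4. PEA2 was the single line with a mean above 1 FPKM there. The intronic window at +14.9 kb was low in A2780 and CP70 (0.418 ± 0.0249 and 0.443 ± 0.102 FPKM) and more open in the other 4 lines, from 1.83 ± 0.360 in PEA1 to 4.77 ± 0.399 in PEO1. In PEO4 1 of 3 tested windows rose, that at +0.5 kb (0.63 ± 0.16, limma adjusted p = 0.000558), beside a 5 Mb median of 0.70.

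In FPKM, KLF4 moved in opposite directions in CP70 and PEA2. The 3 windows classed as distal lie over its short gene body, 0.6 to 2.4 kb downstream of the start. All 4 windows rose in CP70, where 47.5% of all tested windows rose, and all 4 fell in PEA2, where 21.4% fell. With the 5 Mb median removed, the median change of the 4 windows was 0.12 in CP70 and -0.60 in PEA2. The start window, chr9:110251801-110252800, read 6.66, 5.86 and 6.28 FPKM in PEA1 and 3.35, 2.72 and 3.15 in PEA2. A2780 read 2.51, 3.02 and 2.83 and CP70 6.36, 4.19 and 4.27. Neither pair overlapped. The change was -1.01 ± 0.23 in PEA2 and 0.78 ± 0.29 in CP70 (limma adjusted p = 2.66e-05 and 0.0198). The rise in CP70 is of the size of the median of all windows there, and with median centring it was 0.53 and did not pass the test. At +0.6 kb the rise in CP70 held with median centring (0.69). There the PEA2 change was -1.32 ± 0.23, and the PEA2 change minus the CP70 change was -2.26 ± 0.34 (limma adjusted p = 6.96e-09). The 5 Mb median at KLF4 was -0.57 in PEA2, and -0.44 at the start and -0.74 at +0.6 kb remained with it removed. PEO4 and PEO1 had similar starts, 8.87 ± 1.49 and 7.71 ± 1.25 FPKM (0.20 ± 0.14, adjusted p = 0.198).

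BMI1 was open in every line, and on the relative scale its start window varied least between lines. The start window, chr10:22609801-22610800, read 2.63, 2.86 and 2.23 FPKM in A2780 and 7.27, 3.65 and 4.69 in CP70. PEA1 read 5.64, 6.79 and 4.36 and PEA2 4.95, 3.12 and 4.61. PEO1 read 10.4, 11.8 and 8.02 and PEO4 11.7, 10.8 and 10.6. On the relative scale all lines lay between 1.99 ± 0.302 in PEA2 and 3.50 ± 0.710 in CP70, a ratio of 1.76. No BMI1 window passed the test in PEA2 or PEO4 (0 of 8 in each), with start-window changes of -0.40 ± 0.23 and 0.14 ± 0.13 (adjusted p = 0.112 and 0.312). With median centring the start window fell in PEA2 (-0.91) and rose in PEO4 (0.48), so its course against other windows depends on the scaling. In CP70, 5 of 8 rose, against 47.5% of all tested windows, and the median change of the 8 was 0.06 with the 5 Mb median removed. The start rose by 0.94 ± 0.29 (limma adjusted p = 0.00543), and it was 0.68 with median centring, which did not pass the test.

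All 59 windows were also compared over the 6 lines at once. In FPKM, 44 of 59 differed among the lines (limma F test over 18 libraries, adjusted p below 0.001 and a range of line means above 2 on the log2 scale), 9 of 13 promoter and 32 of 41 distal windows, against 75.5% of all windows. PEO1 was the highest line at 38 of the 59 windows (64.4%), against 47.0% of all windows. On the relative scale PEO1 was highest at 17 (28.8%), against 19.4% of all, and PEA1 at 23 (39.0%), against 15.03% of all. Of the 23, 17 were distal. ALDH1A2, with 19 of the 59 windows, gave more of the 23 than any other gene. Many of these windows are neighbours, and touching windows share 100 bases, so they are not independent. With median centring the count that differed was 23, and with quantile normalization 22.

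**Figure D4:**
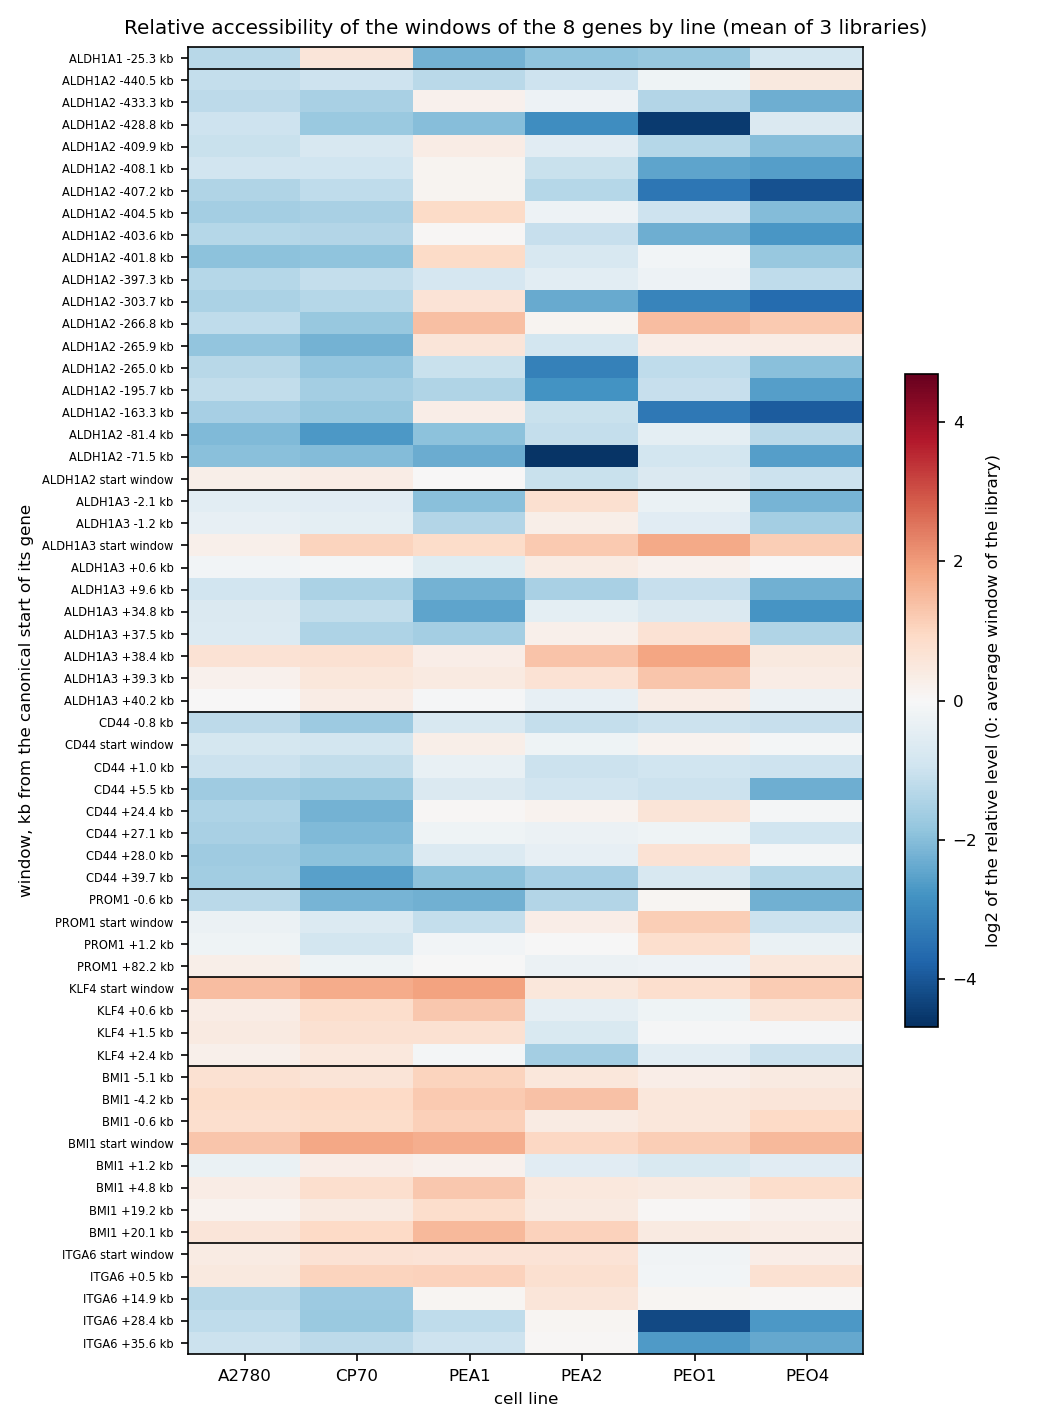
Log2 of the mean relative level (0 is an average window of the library, n = 3 libraries) of the 59 windows in the 6 lines, grouped by gene and ordered by distance from the canonical start in kb. The starts of KLF4, BMI1 and ALDH1A3 are red (above average) in all lines. The CD44 windows are blue (below average) in A2780 and CP70, and some of them, such as that at +5.5 kb, are blue in every line. The PROM1 windows around the start are above average in PEO1.

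No window of these genes separated resistant from sensitive lines over the 3 pairs. With the mean of each line as the unit and the pair as a block, 0 of 45 tested windows passed (limma adjusted p = 1.00 at the ALDH1A1 window, whose unadjusted p of 0.0921 was the lowest of the 45), against 0% of all 74141 windows, of which 1021 had an unadjusted p below 0.05, while none of the 45 did. With the 18 libraries as units and the pair as a term, 3 of the 45 passed, against 10.6% of all windows. The test rests on 3 pairs, so a change in all of them would have to be large to pass.

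Genes that work with these markers were read at their start windows. Of 13 genes of retinoid metabolism and signalling, 11 had a start window in the table. In CP70 7 of 10 tested rose and 1 fell, against 43.9% and 1.48% of all start windows of protein-coding genes, in PEA2 3 of 11 rose and 3 fell, against 17.6% and 35.7%, and in PEO4 5 of 10 rose and 1 fell, against 26.4% and 30.9%. RARB, a retinoic acid receptor, was called higher in CP70 (2.14 ± 0.25, limma adjusted p = 5.76e-15), from 0.812 ± 0.352 to 3.87 ± 1.32 FPKM, and fell in PEO4 (-1.15 ± 0.12). CRABP2, which carries retinoic acid to its receptor, was called higher in PEO4 (2.25 ± 0.16, limma adjusted p = 6.67e-15), from 2.14 ± 0.439 to 10.4 ± 1.03 FPKM.

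The shares of all start windows just given are also the background of the lists that follow. Other aldehyde dehydrogenases had no called start window among 13 listed. In PEA2 1 of 13 rose and 7 fell, among them ALDH2, the mitochondrial enzyme of ethanol metabolism (-1.02 ± 0.23). In CP70 5 of 12 rose (41.7%, beside 43.9% of all start windows) and 0 fell, and in PEO4 4 of 13 rose and 2 fell. Of 15 Polycomb partners of BMI1, all listed and tested in each pair, 6 rose in CP70 (40%, again near the 43.9% of all) and 0 fell, 1 rose and 7 fell in PEA2, and 9 rose and 2 fell in PEO4. CBX2, a chromodomain subunit, fell in PEA2 (-1.38 ± 0.23, limma adjusted p = 1.28e-08) and rose in PEO4 (1.11 ± 0.12, limma adjusted p = 2.32e-10). RING1, the ubiquitin ligase subunit that pairs with BMI1, fell in PEA2 (-0.93 ± 0.23) and was called higher in PEO4 (2.02 ± 0.15, limma adjusted p = 4.39e-14).

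Among the hyaluronan and CD44 partners, 7 of 11 had a start window. ESRP1, a splicing factor that acts on CD44 transcripts, was called higher in PEA2 (2.10 ± 0.23, limma adjusted p = 6.32e-19), from 1.34 ± 0.194 to 6.18 ± 1.58 FPKM, and stood at 22.0 ± 1.98 in PEO1. The list had 1 of 5 higher and 0 lower in CP70, 2 of 7 higher and 3 lower in PEA2, and 2 of 5 higher and 1 lower in PEO4. Of 9 listed integrin partners and laminins of ITGA6, 6 of 6 tested rose in CP70, 3 rose and 2 fell of 9 in PEA2, and 5 rose and 2 fell of 9 in PEO4. LAMB3, a chain of a laminin bound by this integrin, rose in PEA2 (1.74 ± 0.24). Of the other stem-like state genes, 8 of 11 were listed, and in PEO4 2 of 8 rose and 5 fell. SOX2, a pluripotency factor, rose in PEA2 (1.35 ± 0.23) and fell in PEO4 (-1.52 ± 0.12), as the PROM1 start did. In CP70 3 of 6 rose and 0 fell, and in PEA2 3 of 7 rose and 1 fell.

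Start windows whose levels ran most alike over the 18 libraries were sought among 13720 protein-coding genes, leaving out those within 1 Mb, as a description. For CD44 the closest were SYBU, ABTB3 and MET (Pearson r = 0.985, 0.984 and 0.984 on log2(FPKM + 0.1)). For PROM1 they were TRIM58, PRSS37 and WNT7B (r = 0.972, 0.963 and 0.962). These points share the library share in windows, which differs between lines.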

How the data were processed

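ATAC-seq was performed on 6 ovarian cancer cell lines with 3 libraries each. Reads were aligned by the authors to hg19 with Bowtie2 and processed with Picard, as named in the submitters' processing notes, and counted per window with featureCounts, with versions not given in the sources used here. The deposited FPKM values are reads per 1 kb window (step 900 bp) per 1000000 reads, made by the authors with the rpkm function of edgeR, and were used as deposited. The 23 steps between chromosomes along the window numbers matched GRCh37, whose GENCODE annotation and sequence were used. The values were whole multiples of 1 read (100% of values, tolerance 0.01), which gave library totals of 8972042 to 60495462 reads. At these totals 3 reads are worth 0.0496 to 0.334 FPKM, and deeper libraries give less counting error.

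Windows with a mean above 1 FPKM in a pair were tested in R 4.3.3 with limma 3.58.1 (mean-variance trend) on log2(FPKM + 0.1), a scale that understates changes of low windows. Calls needed an adjusted p below 0.001 and a log2 fold change above 2 in size, as in the study, whose voom weights need counts. The script was tested on simulated data. As alternatives, limma with voom weights was run on the recovered reads, and pseudocount, filter, depth limit, scaling, extension and promoter definition were varied. The start window of a gene holds the start of its canonical transcript. The 5 Mb median is the median log2 fold change of all tested windows in the 5 Mb stretch that holds a window. These stretches are fixed along each chromosome and not centred on the window, which may lie near an edge. The rule for windows described singly took each start window, the highest and the widest-ranging distal window of each gene and every called window. Other windows, and the example genes of the partner lists, were chosen after their values were seen. The genes, partner lists and tests were chosen with earlier results of these data known. Tables and figures were made with Python 3.11.15, pandas 2.3.3, numpy 2.4.6 and matplotlib 3.10.9.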

Additional observations from a re-analysis of the deposited data

Results flagged for a closer look

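Changes between paired lines that differed from pair to pair, by a limma test of the difference itself (above 2 in size on the log2 scale, adjusted p below 0.001), are listed here as values. ALDH1A3 and PROM1 differed between the PEO and PEA pairs. The PEO4 change minus the PEA2 change was -4.76 at the ALDH1A3 window at -2.1 kb, -3.01 at -1.2 kb, -4.20 at +34.8 kb, -4.31 at +37.5 kb and -2.94 at +38.4 kb, the last at the start of LRRK1. For PROM1 it was -4.00 at the start window and -3.52 at -0.6 kb. The ALDH1A3 window at +34.8 kb and the PROM1 window at -0.6 kb were under the minimum in the PEA pair and not tested there.

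The PEO4 change minus the CP70 change was -2.09 at the ALDH1A3 start window, -2.35 at -2.1 kb, -2.17 at +34.8 kb, -2.03 at +37.5 kb and -2.12 at +38.4 kb. It was -2.42 at the PROM1 start window, -2.05 at the PROM1 window at -0.6 kb and -2.25 at the ALDH1A2 window at -401.8 kb. Apart from the ALDH1A3 windows at the start and at +38.4 kb, these windows were under the 1 FPKM minimum in A2780 and CP70. They were not tested in that pair. With each library centred on its median, 0 of these 8 differences stayed above the threshold of 2. The PEA2 change minus the CP70 change was -2.92 at the ALDH1A2 window at -303.7 kb, 2.28 at the ALDH1A3 window at +37.5 kb, 2.41 at the ALDH1A3 window at -2.1 kb and -2.26 at the KLF4 window at +0.6 kb. Of these windows only that of KLF4 was tested in CP70. Such differences were also found at 12.8% to 26.6% of all windows between the PEA2 change and the others, and at 8.12% between PEO4 and CP70.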

How the results depend on the processing

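Of 774 alternative values of the windows described singly, 676 kept their direction and their side of an adjusted p of 0.05, 59 lost it, 32 gained it and 7 reversed. The count of called windows (1 in CP70, 3 in PEA2, 5 in PEO4) became 0, 0 and 0 with a pseudocount of 1, which shrinks log2 fold changes. It became 0, 1 and 3 with a mean above 2 FPKM, which leaves fewer windows tested. With median centring 0 windows were called in CP70 and 3 in PEO4, with quantile normalization 0 in CP70, and with the 5 Mb median removed 0, 0 and 3. At a log2 fold change over 1 and an adjusted p below 0.05 it was 4, 16 and 18, and with an extension of 50 kb 10 in PEA2. With voom on the recovered reads it was 1, 3 and 6. The planned edgeR test on the recovered reads is not reported here, since the deposited values are not counts.

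At an adjusted p below 0.05, the count higher in CP70 (15) became 5 with a mean above 2 FPKM, 5 with median centring, 2 with quantile normalization and 2 with the 5 Mb median removed. In PEA2 the count higher (11) became 5 and the count lower (15) became 6 with a mean above 2 FPKM, and the count lower became 28 with median centring and 23 with quantile normalization. In PEO4 the count higher (6) became 11 with median centring, 11 with quantile normalization and 16 with the 5 Mb median removed, when the count lower (31) became 11. With promoters set by the window centre, which leaves fewer promoter windows, 3, 2 and 0 promoter windows were higher in CP70, PEA2 and PEO4. The cause of the shifts with scaling was not tested. With the 5 Mb median removed, 7 log2 fold changes reversed: the ALDH1A2 start window was 0.11 in PEA2 and 0.70 in PEO4, ALDH1A2 at -266.8 kb 0.78 in PEO4, the ALDH1A3 start window -0.16 in PEA2, the CD44 start window 0.43 and CD44 at +24.4 kb 0.029 in PEO4, and the ITGA6 start window -0.46 in PEO4.

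Windows that differed among the 6 lines (44) became 13 with a pseudocount of 1, 23 with median centring and 22 with quantile normalization. Over the 3 pairs the count (0) became 3 with 18 libraries as units. Differences between pairs became 7 for PEA2 against CP70 and 0 for PEO4 against CP70 with median centring. Leaving out 1 replicate gave 0 to 1 calls and 6 to 15 windows higher in CP70, the 0 without CP70 replicate 1 or 2 and the 6 without A2780 replicate 3. The replicate numbers did not pair the samples (correlations of deviations from -0.41 to 0.04), and with the replicate number as a block 1, 3 and 5 windows were called in CP70, PEA2 and PEO4, and the 6-line count was 44. Depth limits the low windows, where 3 reads are worth up to 0.334 FPKM.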
